A study of Drosophila melanogaster with 18 samples.

Results

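The sites described here are the transcription initiation sites that a screen of bacterial artificial chromosome (BAC) fragments and a genome-wide screen both listed. They were chosen by position: a BAC site was kept when the genome-wide list held a site on the same chromosome and strand within 5 bp. By this rule 461 of the 753 BAC sites were kept, which is 61.2% of that list (Wilson 95% interval 57.7 to 64.6), and they are called shared sites below. The other 292 BAC sites had no genome-wide site that close. Each shared site had a genome-wide partner of its own, so the partners were 461 of the 13218 sites of the genome-wide list, or 3.49% of it.

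Both lists come from STAP-seq, a reporter assay in which short pieces of genomic DNA sit in a plasmid and sequencing reads the first base of each transcript they start. The cells were Drosophila melanogaster S2 cells, an established embryonic line. The samples that name the genome-wide list were 2 with the zfh1 enhancer in the plasmid and 2 with no enhancer, and those that name the BAC list were 3 with the zfh1 enhancer and 1 with no enhancer. All carried the same plasmid backbone with an intron and a truncated GFP reading frame. Genome-wide fragments were cut from embryo DNA of the sequenced y; cn bw sp strain, and fragments of both libraries were size-selected to about 100 to 250 bp. The plasmid carries each fragment outside its chromosome, which limits it as a model of the endogenous start site. The lists give a chromosome, a position, a name with a serial number, and a strand. They hold no level, no read count and no column for a sample, so there is no value per sample, no depth and no replicate spread, and the response to the enhancer cannot be described. No test over samples was possible. Intervals below are Wilson 95% intervals that cover counting error only, and sites that lie close together are not independent.

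As background, RNA polymerase II starts transcription at a core promoter, the stretch of DNA just around the start site that binds the general transcription factors. Some core promoters start mainly at a single base and others over a broader stretch, and in flies the first kind often carries a TATA box, an initiator or a downstream promoter element. An enhancer, here taken from the locus of the transcription factor gene zfh1, raises the output of core promoters that respond to it. A BAC carries a long insert of genomic DNA, so a BAC library covers a small part of the genome with a far smaller pool of fragments than a genome-wide library. Positions are given as listed, 1-based in genome build dm3. Genes, exons, introns, UTRs and promoter letters around the sites were not analysed here, because the gene table at hand describes another build.

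Most shared sites were listed at exactly the same base. The same base was given for 406 of the 461 (88.1%, 84.8 to 90.7), and the other 55 differed by 1 to 5 bp. Along the direction of transcription the genome-wide site lay downstream at 29 of these 55 sites and upstream at 26. By single offsets, 12 partners lay 1 bp downstream, 3 lay 2 bp, 4 lay 3 bp, 8 lay 4 bp and 2 lay 5 bp downstream. Upstream, 4 partners lay 1 bp away, 5 lay 2 bp, 8 lay 3 bp, 7 lay 4 bp and 2 lay 5 bp away. Offsets in both directions occurred on both strands, with 27 shifted sites on the plus strand and 28 on the minus strand.

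**Figure D1:**
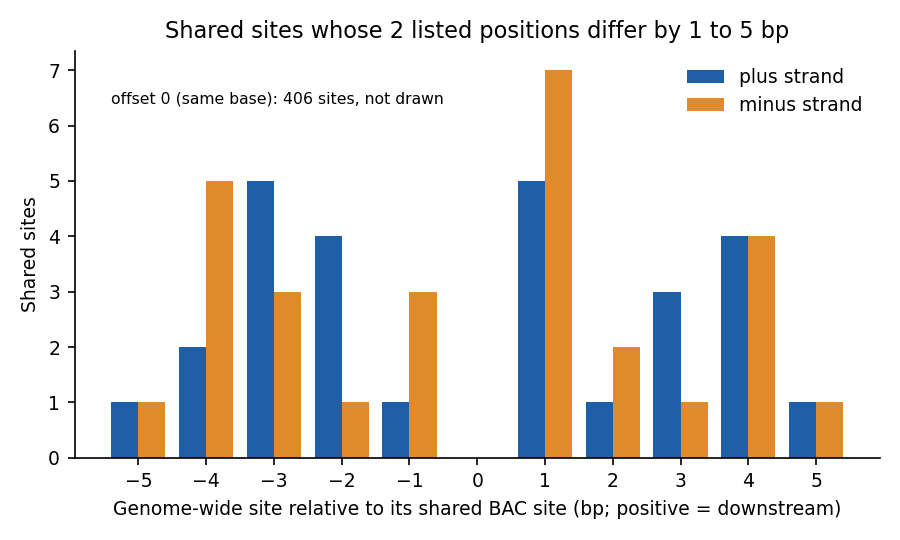
Number of shared sites (vertical axis) by the offset in bp of the genome-wide site from the BAC site along the direction of transcription (horizontal axis), for plus-strand and minus-strand sites. The 406 sites at the same base are not drawn, and the 55 shifted sites lie on both sides, 29 downstream and 26 upstream.

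The distances thinned out at the limit of 5 bp, with 15 BAC sites 4 bp from a genome-wide site, 4 at 5 bp and 0 at 6 bp. Just inside the limit, 19 shared sites lay 4 or 5 bp from their partner. Just outside it, 6 BAC sites lay 6 to 10 bp from a genome-wide site. Among the sites just inside, BAC site 15 on 2R at 20193406 (plus strand) had its partner 4 bp downstream, and BAC site 19 on 2R at 3474581 (minus) likewise 4 bp downstream. BAC site 24 on 3R at 8194983 (minus) had its partner 4 bp upstream. On X, BAC site 27 at 5794903 (plus) had it 5 bp upstream and BAC site 41 at 8165435 (minus) 4 bp downstream. Just outside were BAC site 387 on 3L at 15581990 (plus), 7 bp away, and BAC sites 197 on X at 5796028 (plus) and 262 on 2L at 5009715 (minus), each 9 bp away. BAC site 170 on X at 9544805 (minus), 433 on 3L at 5746076 (plus) and 560 on 2L at 5052758 (minus) were 10 bp away. Most of the sites left out were far from any partner: 243 of the 292 (83.2%) had no genome-wide site on their strand within 1000 bp, and the median distance was 5.37 kb.

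The site names hold serial numbers, which run from 1 to 753 in the BAC list. What the numbers rank is not stated in the sources used here, so they are not read as strength. The rule did not use these numbers. Shared sites had lower BAC numbers, with a median of 263 (quartiles 119 and 441), against a median of 542.5 (389.75 and 649.25) for the other BAC sites. In 10 consecutive bins of BAC numbers the share of shared sites was 98.7% in numbers 1 to 76 (92.9 to 99.8), 88.0% in the next 75, 78.7% in 152 to 226 and 80.3% in 227 to 302. It was 64.0% in numbers 303 to 377, 57.3% in 378 to 452 and 51.3% in 453 to 528. The last 3 bins had 33.3%, 33.3% and 26.7% (18.0 to 37.6). The intervals of neighbouring bins overlapped throughout, while no interval of the first 4 bins overlapped one of the last 4. Of BAC numbers 1 to 100, 98 were shared.

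**Figure D2:**
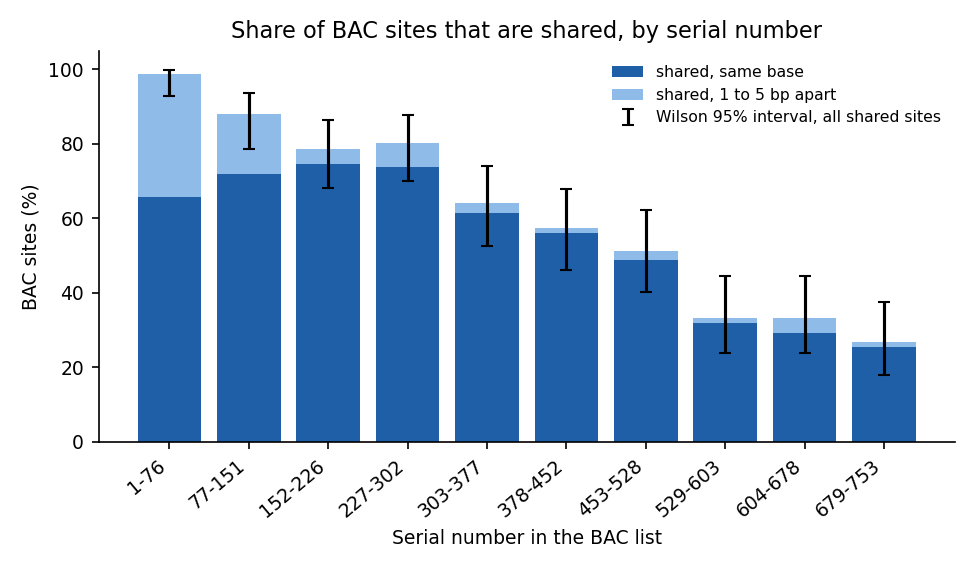
Percentage of BAC sites that are shared (vertical axis) in 10 bins of the BAC serial number (horizontal axis), split into sites at the same base and sites 1 to 5 bp apart, with the Wilson 95% interval of the total. The total is 98.7% in numbers 1 to 76 and 26.7% in the last bin, and the sites 1 to 5 bp apart sit mostly in the first 2 bins.

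Parts of the BAC numbering run in the order of chromosome and position sorted as text, digit by digit, which is not the order along the genome. For example, BAC site 421 on 2L at 19458778 comes just before BAC site 422 on 2L at 4955104. In the 4 such stretches with at least 40 sites, the shared sites were 27 of 47 (57.4%) in numbers 418 to 464, 33 of 69 (47.8%) in 466 to 534, 27 of 84 (32.1%) in 536 to 619 and 38 of 129 (29.5%, 22.3 to 37.8) in 624 to 752. Over the sites outside these stretches, 336 of 424 were shared (79.2%, 75.1 to 82.8). A high number was not a bar to sharing, since 125 shared sites came from the 4 stretches and the highest-numbered shared site was BAC site 750.

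Sites whose 2 positions differed by a few bp were concentrated at low BAC numbers. Of the 75 shared sites with numbers 1 to 76, 25 were shifted by 1 to 5 bp (33.3%, 23.7 to 44.6), and of the 66 in the second bin 12 were (18.2%, 10.7 to 29.1). In the other 8 bins 1 to 5 shared sites were shifted, 2.33% to 12.0% of those in the bin. The shifted sites had a median BAC number of 90 and a median genome-wide number of 3974, against 286.5 and 5245.5 for the sites at the same base. Counting exact matches alone, BAC sites were shared in 65.8% of cases (54.6 to 75.5) in the first bin and 74.7% (63.8 to 83.1) in the third, with overlapping intervals, while the share within 5 bp was higher in the first bin.

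The 10 shared sites with the lowest BAC numbers lay on 4 arms. BAC site 1, on 2L at 479682 (minus strand), was genome-wide site 2902, with its partner 4 bp upstream. BAC site 2, on 2L at 490834 (plus), was genome-wide site 4022 at the same base. BAC site 3, on 2R at 5866824 (plus), was genome-wide site 1835, 2 bp upstream, and BAC site 5, on 2R at 20181625 (plus), was genome-wide site 1397, 1 bp downstream. None of the 10 was among the lowest 1000 numbers of the genome-wide list, where only 3 of all 461 shared sites had their partner. BAC site 4, on 3R at 19171884 (minus), was genome-wide site 4831, 1 bp downstream. BAC site 6, on 3R at 8303211 (minus), was genome-wide site 3681, 1 bp upstream. BAC site 8, on 3R at 11954451 (plus), was genome-wide site 3098, 2 bp upstream. The remaining 3 were at the same base: BAC site 7 on 3R at 11919815 (minus, genome-wide 4017), BAC site 9 on 3L at 7821131 (minus, genome-wide 2181) and BAC site 10 on 3R at 25644861 (plus, genome-wide 2894). At the other end, BAC sites 726, 727 and 733 on 3R at 6152987, 6159727 and 8239134, and 748 and 750 on X at 8034553 and 8140593, all on the minus strand, were at the same base in both lists. Their genome-wide numbers were 12750, 4797, 12781, 13152 and 9345.

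The numbering of the genome-wide list showed a similar pattern from its own side. Between the first and the last BAC site of the regions described below the genome-wide list held 656 sites, of which 460 were partners of shared sites (70.1%, 66.5 to 73.5). The remaining partner lay just outside. In 10 bins of these 656 sites by genome-wide number, partners made up 95.5%, 93.9% and 96.9% of the first 3 bins (numbers 545 to 4376). They made up 83.3%, 80.0%, 77.3% and 65.2% of the next 4 bins, and 49.2%, 33.3% and 26.2% (17.0 to 38.0) of the last 3. The partners' genome-wide numbers had a median of 5133 and ran from 545 to 13212, against a median of 9840 for the 196 genome-wide sites in the regions without a shared site. Few of the very lowest genome-wide numbers lay in the BAC regions at all: 3 of the lowest 1000 did, and all 3 were partners. From the lowest to the highest numbers, 4 equal parts of the whole genome-wide list held 120, 188, 109 and 44 partners. The same parts held 126, 215, 174 and 141 genome-wide sites in the BAC regions, so the counts of partners partly follow these bases.

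Serial numbers of the 2 lists were correlated across the shared sites. Pearson's r was 0.60 and Spearman's rho 0.63 over the 461 sites, as a description across sites that share cells, enhancer and, where close, fragments. The genome-wide numbers, like the BAC numbers, ran in the text order of chromosome and position over long stretches of at least 40 sites. Such a stretch of at least 1 list held 254 of the shared sites. Over the 207 shared sites outside them in both lists r was 0.31 and rho 0.27. Within them, rho was 0.53 over the 254 sites and 0.23 over the 112 that lay in such stretches of both lists. The BAC stretches lie at numbers 418 to 752, so leaving them out leaves mostly lower BAC numbers. Genome-wide stretches took in more of the shared sites, 241 of 461 by their partner, against 125 in BAC stretches. Of the whole genome-wide list, 9868 of 13218 sites (74.7%) lay in such stretches. The part of this text order in these correlations was not tested. Of the 115 shared sites with the lowest BAC numbers, 66 (57.4%) were among the 115 with the lowest genome-wide numbers and 9 among the 116 with the highest. Of the 116 with the highest BAC numbers, 64 (55.2%) were among the 116 with the highest genome-wide numbers and 3 among the 115 with the lowest. By arm, rho was 0.73 on 2L (92 sites), 0.65 on 2R (84), 0.62 on 3L (90), 0.53 on 3R (138) and 0.64 on X (57). In the 23 regions with at least 10 shared sites rho had a median of 0.68 and was above 0 in 22. It was highest, 0.84, on 3R from 11787697 to 11954451 (23 shared sites). It was lowest, -0.19, on X from 15604695 to 15784995 (12 shared sites), and 0.09 on 3R from 6109970 to 6238588 (13 shared sites).

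**Figure D3:**
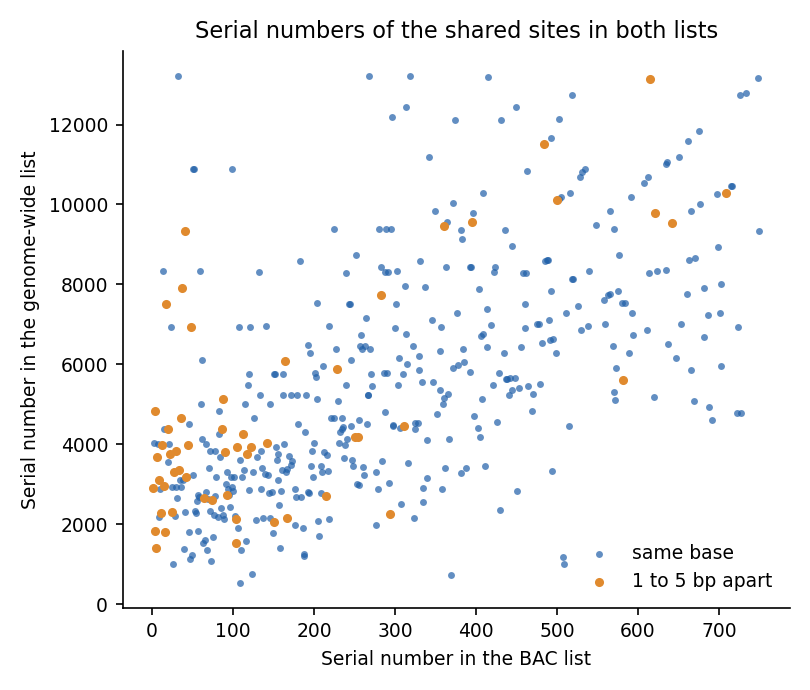
Serial number in the genome-wide list (vertical axis) against serial number in the BAC list (horizontal axis) for the 461 shared sites, with sites at the same base and sites 1 to 5 bp apart in different colours. Spearman's rho is 0.63, and a few points sit far from the rest, with a low number in 1 list and a high number in the other.

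Single sites departed far from this order while keeping the same base. BAC site 32, on 3R at 6137331 (minus strand), was genome-wide site 13207, ranks 31 and 459 of 461. BAC site 50, on X at 15706362 (plus), was genome-wide site 10882, and BAC site 52, on 3R at 8192648 (minus), was genome-wide site 10887. BAC site 13, on 2R at 3551292 (plus), was genome-wide site 8326. The fifth, BAC site 41 on X at 8165435, was genome-wide site 9346 and lay 4 bp from it. In these 5 the number was low in the BAC list and high in the genome-wide list. In the opposite direction, BAC sites 509 and 508 on 3R, at 10976082 (plus) and 10957646 (minus), were genome-wide sites 1010 and 1187, ranks 383 and 382 in the BAC list and 5 and 8 in the genome-wide list. These neighbours lie in 1 region and both had a low genome-wide number. BAC site 369, on 2R at 7120006 (minus), was genome-wide site 740, and BAC site 429, on 2R at 7135632 (plus), was genome-wide site 2369, again within a single region. BAC site 450, on 3R at 2825095 (plus), was genome-wide site 2837.

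Shared sites lay on all 5 arms that the BAC list covers. Arm 3R held 138 (29.9% of them), 2L 92, 3L 90, 2R 84 and X 57. The shared part of the BAC sites was 71.8% on 2R (63.0 to 79.2), 64.2% on 3R (57.6 to 70.3), 61.6% on 3L (53.6 to 69.1), 59.4% on X (49.4 to 68.7) and 51.4% on 2L (44.1 to 58.6), against 61.2% over the whole list. The interval of 2R lay above that of 2L, and all other pairs of arms overlapped. BAC numbers differed between these arms, with a median of 331 on 2R and 418 on 2L. Applying to each site the shared percentage of its number bin gave 77.6 shared sites on 2R and 106.1 on 2L, where 84 and 92 were counted. On 3L this gave 87.8, on 3R 131.0 and on X 58.4. In percent the bins gave 66.3% on 2R and 59.3% on 2L, a narrower difference than the counted 71.8% and 51.4%. The bin shares, here and for the regions below, come from the same BAC sites, so they are not an outside expectation.

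The strands were used in near equal numbers. The shared sites comprised 230 on the plus and 231 on the minus strand, 49.9% plus (45.3 to 54.4), against 46.6% plus (40.9 to 52.3) among the other BAC sites, with overlapping intervals. On single arms the plus share of shared sites was between 47.1% on 3R and 54.3% on 2L. All 5 intervals held an equal split.

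The labels give no BAC coordinates, so a region was ended wherever neighbouring BAC sites were more than 60 kb apart. There were 34 such regions, 4.90 Mb in all, and each held at least 1 shared site, with a median of 13 and at most 30. With regions ended at gaps of 40 kb, 43 of 44 held one. In the 30 regions with at least 10 BAC sites the shared part had a median of 61.7% and ran from 34.0% to 90.9%. It was above 50% in 23 of these 30. No region with at least 5 BAC sites was shared entirely or not at all. The 3 regions that were shared entirely had 3 BAC sites each.

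Of the 3 regions with the most shared sites, 2 were on 2R. The stretch of 2L from 4945728 to 5320796 held 30 shared sites among 51 BAC sites (58.8%). Over its length of 375.1 kb this was the thinnest spread of the 3. The stretch of 2R from 3469545 to 3623124 held 30 among 43 (69.8%), 19.5 per 100 kb, and that from 20161377 to 20304845 on 2R held 26 among 37 (70.3%), 18.1 per 100 kb. The last also had the most shifted sites, 6. At the low end, on 2L from 341433 to 524662, 17 of 50 BAC sites were shared (34.0%, 22.4 to 47.8). This region contains BAC sites 1 and 2, and its median BAC number was 474.5. The shares of the number bins gave 26.8 shared sites there, the widest departure of the 34 regions. Next came 3R from 8185736 to 8331514 with 17 counted and 21.9 given by the bins, and 3R from 19052430 to 19189247 with 10 and 14.5. On the other side, 3R from 6109970 to 6238588 had 13 counted and 8.61 given by the bins, and 3R from 25497385 to 25659124 had 22 of 26 shared (84.6%) and 18.3 given. In 28 regions the 2 counts differed by at most 3.

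**Figure D4:**
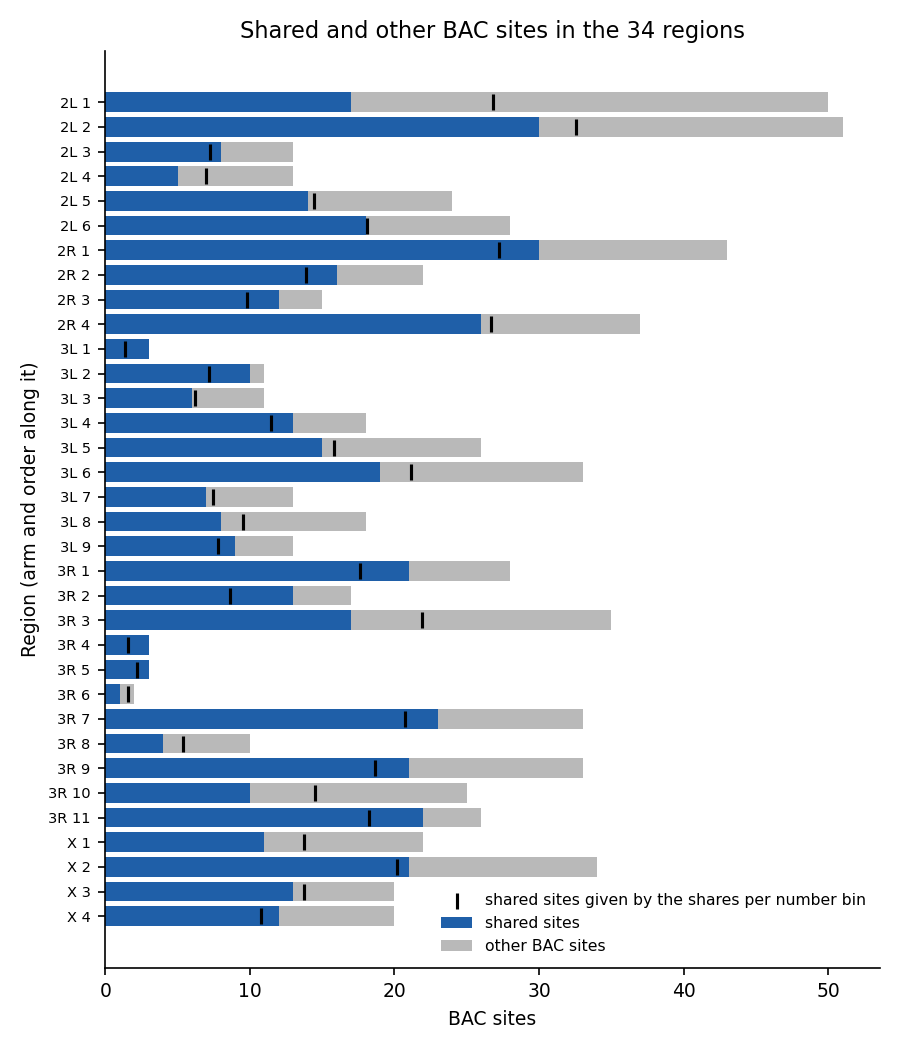
Shared sites and other BAC sites (horizontal axis, number of sites, stacked) in each of the 34 regions (vertical axis, arm and order along it), with a tick at the number of shared sites that the shares of the 10 number bins give. The first region of 2L has 17 shared sites where the tick is at 26.8, and most other regions end near their tick.

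Shared sites had close neighbours in the BAC list about as often as the other BAC sites on their own strand, and the shares on the opposite strand were higher with overlapping intervals. Within 100 bp on the same strand, 57 of 461 shared sites had another BAC site (12.4%, 9.67 to 15.7), against 30 of 292 other BAC sites (10.3%, 7.29 to 14.3). Within 250 bp these were 17.4% and 15.4%. On the opposite strand within 250 bp, 52 shared sites had a neighbour (11.3%, 8.71 to 14.5), against 19 other BAC sites (6.51%, 4.20 to 9.94). Among BAC numbers up to 377, 31 of 309 shared sites and 4 of 68 other sites had an opposite-strand neighbour within 250 bp, and among higher numbers 21 of 152 shared sites and 15 of 224 other sites had one. No BAC site on either strand lay within 1000 bp of 265 shared sites (57.5%, 52.9 to 61.9) or of 193 other BAC sites (66.1%, 60.5 to 71.3).

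The genome-wide list also chose the shared sites, so neighbours in it, leaving out the partner itself, are given as a description only. On the opposite strand within 250 bp, 67 shared sites had a genome-wide neighbour (14.5%, 11.6 to 18.0), against 18 other BAC sites (6.16%, 3.93 to 9.53). Within 1000 bp these were 119 of 461 (25.8%) and 43 of 292 (14.7%). On the same strand within 100 bp they were 14.1% (11.2 to 17.6) and 8.56% (5.87 to 12.3). The count for the other BAC sites takes in 18 sites with a genome-wide site at 6 to 50 bp.

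**Figure D5:**
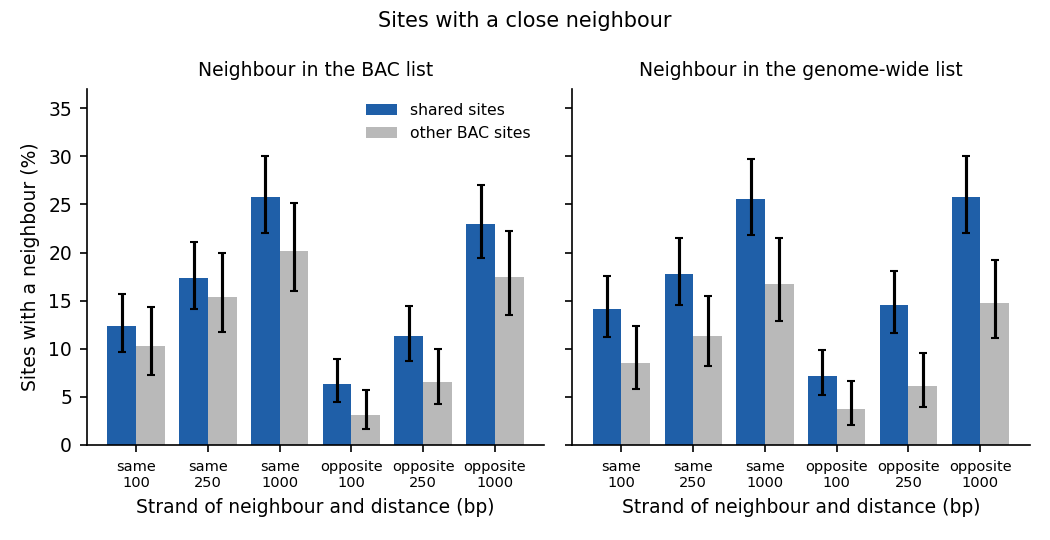
Percentage of sites with another listed site within 100, 250 or 1000 bp on the same or the opposite strand (vertical axis), for shared sites beside other BAC sites, with Wilson 95% intervals, counting neighbours in the BAC list (left) and in the genome-wide list (right). Intervals overlap throughout the left panel. The right panel, a description since that list chose the shared sites, has opposite-strand shares of 14.5% and 6.16% at 250 bp.

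Pairs of BAC sites on the scale of a single fragment are counted next. The 61.2% of single BAC sites that were shared is not a like base for pairs with both sites shared. Of 106 pairs of BAC sites 22 to 250 bp apart, 56 had both sites shared, 31 had 1 and 19 had neither. On the same strand these were 36, 22 and 14 of 72 pairs. Of 20 divergent pairs, in which the minus-strand site lies to the left and transcription runs apart, 10 had both sites shared, 8 had 1 and 2 had neither. Of 14 convergent pairs, 10 had both sites shared, 1 had a single one and 3 had neither. Among the pairs with both sites shared, divergent and convergent ones were thus equally many, 10 each, with an interval of 29.9% to 70.1% for the divergent part.

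The spacing within such pairs is close to fixed by the rule, since each of the 2 positions may differ by at most 5 bp between the lists, and is given as a description. Counting pairs from 1 bp up to 250 bp, 59 pairs had both sites shared, 36 on the same strand, 12 divergent and 11 convergent. In 51 of the 59 (86.4%, 75.5 to 93.0) the spacing was identical to the base in both lists, and in the other 8 it differed by 1 to 5 bp. The 12 divergent pairs were a median of 123.5 bp apart (5 to 245) and the 11 convergent ones 58 bp (11 to 182), so the ranges overlapped. The shortest same-strand spacing was 23 bp, where neither list as a whole has same-strand sites closer than 22 bp. The order of the serial numbers within a pair was the same in both lists in 48 of 59 pairs (81.4%, 69.6 to 89.3). In 3 of these pairs both sites lay in a single ascending stretch of a numbering, and the order was the same in 46 of the other 56. Pairs that share a site are counted separately here, so they are not independent. The share with the same order was not computed over all pairs of shared sites, whose numbers correlate with rho 0.63. Whether it is particular to close pairs was not tested.

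Most shared sites stood alone, as most other BAC sites did, and the few groups had distinct layouts. No BAC site lay within 1000 bp of 57.5% of shared sites and 66.1% of other BAC sites. With gaps of at most 250 bp on either strand, 366 shared sites had no shared neighbour, 39 groups held 2, 3 groups held 3 and 2 groups held 4. The first group of 4 lay on the plus strand of 2L over 269 bp, at 523468, 523562, 523697 and 523736. Their BAC numbers were 59, 282, 171 and 20, and their genome-wide numbers 8328, 8442, 5224 and 3555. Of these 4 the most downstream site had the lowest number in both lists, and all 4 were at the same base in both. Within 250 bp of the group lay 2 BAC sites that were not shared, at 523223 on the plus strand (BAC number 424) and 523457 on the minus strand (656).

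The second group of 4 lay on 2R over 185 bp and mixed the strands. Its outer sites, at 20163261 and 20163445, were on the plus strand, with BAC numbers 39 and 29 and genome-wide numbers 1395 and 2939. Between them, 20163283 and 20163319 were on the minus strand, with BAC numbers 426 and 563 and genome-wide numbers 4556 and 7738. Both minus-strand sites thus had higher numbers than both plus-strand sites in each list.

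The 3 groups of 3 included a row of plus-strand sites on 2L at 5029616, 5029639 and 5029687, with BAC numbers 76, 292 and 393 and genome-wide numbers 2244, 3022 and 5810. Here the order of the numbers was the same in both lists. On 3R, plus-strand sites at 2988531 and 2988613 and a minus-strand site at 2988653 had BAC numbers 723, 160 and 210, and genome-wide numbers 6944, 3365 and 3304, so the last 2 changed places. On 3L, a minus-strand site at 7753394 and plus-strand sites at 7753537 and 7753639 had BAC numbers 238, 505 and 87, and genome-wide numbers 3978, 10176 and 5133. The minus-strand site and its plus-strand neighbour at 7753537 formed a divergent pair 143 bp apart in both lists, while the third site was shifted by 5 bp.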

How the data were processed

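As deposited, each of the 2 lists holds positions of single-base sites with a serial number and a strand, and no measured level. The submitters' processing notes give dm3 as the build and name Bowtie 0.12.9 and CASAVA 1.9.1, with no word on their roles. The sources used here do not state how the authors called, filtered, pooled or numbered sites, and the lists may rest on the zfh1 samples alone. How reads were filtered could set both which sites were listed and their exact base. The other 10 of the 18 samples, with other enhancers, were not analysed here.

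For each BAC site the nearest genome-wide site on the same chromosome and strand was found by the end position, using pandas 2.3.3 and numpy 2.4.6 in Python 3.11.15, with intervals from scipy 1.17.1 and figures from matplotlib 3.10.9. The matching was checked on planted positions. Offsets are signed along the direction of transcription. Counts per number bin, region, neighbour distance and pair were taken from these matches. Sites named in the text are those with the 10 lowest and 5 highest BAC numbers, those near the 5 bp limit, the 5 with the widest rank difference in each direction, the 3 regions with the most shared sites and the largest groups. Other regions were named after their values were seen, as were the smaller groups. The shared sites, the bins and the rules were chosen with earlier results of these data known.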

Additional observations from a re-analysis of the deposited data

How the results depend on the processing

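Of 90 values recomputed under 14 alternatives, 76 stayed within the interval of the main value or within 1.5 times a main count, and 14 moved. For 1 alternative, the start in place of the end position of single-base sites, all 11 results equalled the main values by construction. The shared part of BAC sites, 61.2%, was 53.9% at the same base, 57.1% within 2 bp and 66.1% without the highest-numbered 25% of each list. The same-base part of shared sites, 88.1%, was 100% at the same base by construction, 94.4% within 2 bp and 84.8% within 50 bp. Without the highest-numbered 25%, Spearman's rho fell to 0.55, against 0.63, over a narrower range of numbers. It was 0.27 over sites in a long run of neither numbering, an alternative chosen after seeing the data that leaves mostly lower BAC numbers. Leaving out the highest-numbered 25%, which removes neighbours, gave 9.38% of shared sites with a same-strand BAC neighbour within 100 bp, against 12.4%. That part was 17.4% within 250 bp, 25.8% within 1000 bp and 0.0% with 1 site per same-strand group, by construction. The part with an opposite-strand neighbour, 6.29% within 100 bp, was 11.3% and 23.0% at those distances. No paired analysis was possible because neither list has per-sample values, and no replicate could be left out. Depth is unknown, so a site missing from a list is not shown to be inactive.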

Other observations

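Some BAC sites with low serial numbers had no genome-wide site within 5 bp. The 5 lowest, chosen after their values were seen, were BAC site 18 on 3L at 5745236 (minus strand), 80 on X at 5664594 (minus), 114 on 2R at 3485415 (plus), 125 on X at 15698406 (plus) and 127 on 3L at 19784173 (minus). Their nearest genome-wide sites on the same strand lay 1302, 216, 4341, 7956 and 2486 bp away. The shared sites with the lowest genome-wide numbers were site 545 on X at 9556789 (minus), 740 on 2R at 7120006 (minus) and 755 on 2L at 4997377 (minus), with BAC numbers 108, 369 and 123.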
